A study of Mus musculus with 4 samples.

Results

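The genes described here are 8 genes of serine synthesis, mitochondrial one-carbon metabolism and amino acid stress, out of 17391 genes in the count table: Phgdh, Psat1, Psph, Shmt2, Mthfd2, Asns, Trib3 and Chac1. They were chosen by name, with earlier results of these data known, and all 8 are in the table. Expression was measured by Drop-seq, which captures single cells with barcoded beads in droplets, in primary cultures of kidney Gli1+ cells from male mice aged 12 weeks. The title of the series speaks of a conditionally immortalized Gli1-positive line. After 2 h in serum-free medium, cultures were treated with TGF-β at 1 ng/ml, the cytokine best known for turning fibroblasts into myofibroblasts, and collected 6, 12 or 24 h later. The control, labelled 0 h, received no TGF-β and was collected at the end of those 2 h. Each time point is 1 library, so no difference has a replicate check and no test was made. Hours with TGF-β and hours in serum-free medium increase together and cannot be told apart.

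Cells make serine from a glycolytic intermediate in 3 steps, catalysed in order by Phgdh (phosphoglycerate dehydrogenase), Psat1 (phosphoserine aminotransferase) and Psph (phosphoserine phosphatase). Shmt2 then splits serine into glycine and a one-carbon unit inside mitochondria, and Mthfd2 oxidises that unit so that it can be exported for nucleotide synthesis. Asns makes asparagine, Trib3 is a pseudokinase that restrains stress signalling, and Chac1 degrades glutathione. The transcription factor ATF4, whose translation rises when kinases phosphorylate eIF2α, is known to induce these genes when amino acids are short or the endoplasmic reticulum is stressed. In fibroblasts serine and glycine also feed collagen, which is rich in glycine.

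ATF4 binds, with C/EBP partners, an element searched here as TGATGNAA on both strands. Among RefSeq promoters of GRCm38.p6, taken as 250 bases before to 50 bases after each start, 3.97% of 32851 hold it. All 8 genes matched the promoter table, and 3 of 8 held the element: Asns, Trib3 and Chac1. The windows are shown because these are the genes named as stress targets, and the capitals mark the element, which reads as TTNCATCA where it lies on the opposite strand.
Asns: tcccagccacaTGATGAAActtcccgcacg
Trib3: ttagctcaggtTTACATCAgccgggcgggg
Chac1: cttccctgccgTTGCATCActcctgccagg
The Asns window is chr6:7693214-7693243 on the minus strand, and its element ends 16 bases before the RefSeq start, inside the bounds GENCODE M21 gives the gene. The Trib3 window is chr2:152344028-152344057 on the minus strand, with the element 14 to 21 bases after the RefSeq start and upstream of the GENCODE bounds. The Chac1 window is chr2:119351038-119351067 on the plus strand, with the element 193 to 186 bases before the start. The serine enzymes had no match in these windows, which says only that those letters are not there.

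A second motif, CCAAT, was looked for after the promoters had been read. It was present on either strand in 5 of 8 genes, namely Phgdh, Psat1, Psph, Mthfd2 and Chac1, and in 37.4% of all promoters. The stretches upstream of Phgdh and Psat1 are shown because they are the first enzymes of the pathway and had no match to the ATF4 element. Capitals mark CCAAT.
Phgdh: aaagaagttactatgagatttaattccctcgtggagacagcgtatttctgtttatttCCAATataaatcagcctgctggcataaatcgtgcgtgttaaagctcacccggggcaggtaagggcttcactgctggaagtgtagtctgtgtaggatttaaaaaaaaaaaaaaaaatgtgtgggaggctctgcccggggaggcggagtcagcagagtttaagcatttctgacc
Psat1: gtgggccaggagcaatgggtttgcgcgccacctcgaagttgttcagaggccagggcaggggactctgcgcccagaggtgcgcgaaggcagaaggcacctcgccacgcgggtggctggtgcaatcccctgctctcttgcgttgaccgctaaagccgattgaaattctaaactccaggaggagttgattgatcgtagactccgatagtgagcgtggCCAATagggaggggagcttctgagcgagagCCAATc
The Phgdh stretch is chr3:98339991-98340219 on the minus strand, directly upstream of the GENCODE gene. Phgdh has another CCAAT, 23 to 19 bases before the RefSeq start, which crosses the end of this stretch and is not marked. The Psat1 stretch is chr19:15925060-15925309 on the minus strand, inside the bounds GENCODE M21 gives the gene, and precedes 1 of 2 RefSeq starts. Psat1 has another CCAAT 23 to 27 bases after that start, outside the stretch.

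The libraries differed in depth and in content. In time order they held 192, 658, 1120 and 1328 barcodes with 106826, 778793, 5687966 and 6166324 counts, and no barcode was shared between libraries. Levels are given as CPM, a gene's counts scaled to a common total for every library, with exact Poisson 95% intervals in parentheses that cover counting error only. A count of 0 allows a level of up to 3 counts, which is 28.1, 3.85, 0.527 and 0.487 CPM at 0, 6, 12 and 24 h. What the library labelled 0 h held contradicts that label. A mesenchymal marker list, with 9 of 10 genes in the table, summed to 46.8 CPM (15.2 to 109) there with 6 of 9 at 0, among them Col1a1, Col3a1 and Pdgfrb, against 7071, 12554 and 13671 CPM at 6, 12 and 24 h. Proximal tubule markers (8 genes, none at 0) summed to 16990 CPM in it, and to 2.57, 0.352 and 0.811 CPM at 6, 12 and 24 h. Loop, distal tubule and collecting duct markers (5 genes, none at 0) summed to 3595 CPM in it, and to at most 1.28 CPM in the treated libraries. Malat1, a nuclear RNA, made up 32.2% of its counts and 0.947% to 1.24% of those of the treated libraries, while ribosomal protein genes made up 0.373% of its counts and 10.2% to 14.4% of theirs. A difference between that library and another therefore cannot be told apart from a difference in cell types or in RNA content.

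The 3 serine synthesis enzymes shared a pattern: no count in the library labelled 0 h, the highest level at 6 h, and a lower level at 12 h. Phgdh, which catalyses the entry step, had 0 counts at 0 h, then 112 CPM (89.5 to 138) from 87 counts at 6 h, 39.4 CPM (34.4 to 44.9) from 224 counts at 12 h, and 40.5 CPM (35.7 to 45.9) from 250 counts at 24 h. The 6 h interval lies above both later ones, and the 12 h and 24 h intervals overlap. Phgdh was 2.84-fold lower at 12 h than at 6 h (2.19 to 3.65, the exact conditional interval of the CPM ratio), and its ratio of 24 h over 12 h was 1.03 (0.856 to 1.24). The gene lies at chr3:98313170-98339990 on the minus strand (GENCODE M21, GRCm38). The last 600 bases of its transcripts share stretches of 51 bases with 16 other annotated genes, none of which is in the table, so reads may have been lost or added and the Phgdh level is uncertain.

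Psat1, the aminotransferase of the middle step, had 0 counts at 0 h, 77.0 CPM (58.8 to 99.2) from 60 counts at 6 h, 28.3 CPM (24.1 to 33) from 161 counts at 12 h, and 12.0 CPM (9.42 to 15.1) from 74 counts at 24 h. Its 3 treated libraries descend with no overlap of intervals. Psat1 was 2.72-fold lower at 12 h than at 6 h (1.99 to 3.68) and 2.36-fold lower at 24 h than at 12 h (1.78 to 3.15). At 24 h it was 6.42-fold lower than at 6 h (4.49 to 9.15), the widest difference between treated libraries among the 6 genes at 20 CPM or more. The gene lies at chr19:15904678-15947337 on the minus strand and shares 3′ stretches with 1 other annotated gene. It also overlaps Gm3329, a pseudogene on the opposite strand, by 556 bases, and neither is in the table.

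Psph, which releases serine, had 0 counts at 0 h, 123 CPM (99.8 to 151) from 96 counts at 6 h, 31.5 CPM (27.0 to 36.4) from 179 counts at 12 h, and 29.4 CPM (25.2 to 34.0) from 181 counts at 24 h. As with Phgdh, the 6 h level stands above levels at 12 h and 24 h that overlap. Psph was 3.92-fold lower at 12 h than at 6 h (3.02 to 5.05), and 1.07-fold lower at 24 h than at 12 h (0.867 to 1.33), an interval that includes no difference. The gene (chr5:129765558-129787449, minus strand) overlaps Cct6a, a chaperonin subunit on the opposite strand, by 452 bases at its 5′ end. No source used here gives the strand setting of the counting, so reads from that overlap cannot be told apart. Cct6a was at 18.7, 529, 475 and 378 CPM at 0, 6, 12 and 24 h.

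The mitochondrial one-carbon enzymes had smaller ratios between 12 h and 6 h than the serine enzymes, with intervals that overlap those of Phgdh and Psat1 but not that of Psph. Mthfd2 had 0 counts at 0 h, 51.4 CPM (36.7 to 69.9) from 40 counts at 6 h, 26.4 CPM (22.3 to 30.9) from 150 counts at 12 h, and 16.9 CPM (13.8 to 20.4) from 104 counts at 24 h. It descended without overlap, by 1.95-fold at 12 h against 6 h (1.34 to 2.78) and 1.56-fold at 24 h against 12 h (1.21 to 2.03). Shmt2 had 18.7 CPM (2.27 to 67.6) from 2 counts at 0 h, 28.2 CPM (17.7 to 42.8) from 22 counts at 6 h, 17.4 CPM (14.1 to 21.2) from 99 counts at 12 h, and 12.5 CPM (9.85 to 15.6) from 77 counts at 24 h. The CPM intervals of neighbouring time points of Shmt2 overlap, and its ratio interval at 12 h against 6 h, 0.973 to 2.60-fold lower around 1.62, includes no difference. At 24 h Shmt2 was 1.39-fold lower than at 12 h (1.02 to 1.9), which does not include it, and 2.26-fold lower than at 6 h (1.34 to 3.67). Mthfd2 lies at chr6:83305691-83325908 and Shmt2 at chr10:127517123-127522444, both on the minus strand. Shmt2 overlaps Ndufa4l2, on the opposite strand and not in the table, by 32 bases at its 3′ end, and shares stretches there with 1 annotated gene. Mthfd2 overlaps Gm43890 by 2799 bases on its own strand, an annotated locus that is not in the table.

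The stress genes split. Asns (chr6:7675169-7693254, minus strand) was measured in every treated library, and Trib3 (chr2:152337422-152344032, minus strand) and Chac1 (chr2:119351229-119354381, plus strand) were near 0. Asns had 0 counts at 0 h, 113 CPM (90.6 to 139) from 88 counts at 6 h, 49.2 CPM (43.6 to 55.3) from 280 counts at 12 h, and 35.5 CPM (31.0 to 40.5) from 219 counts at 24 h. The 3 treated levels of Asns do not overlap, and it was 2.30-fold lower at 12 h than at 6 h (1.79 to 2.93) and 1.39-fold lower at 24 h than at 12 h (1.16 to 1.66). Trib3 had no count at 0 h or 6 h, 14 counts or 2.46 CPM (1.35 to 4.13) at 12 h, and 5 counts or 0.811 CPM (0.263 to 1.89) at 24 h. The 3.85 CPM that a count of 0 allows at 6 h is above both later levels, so no direction against 6 h was detectable at this depth. Chac1 had 0, 1, 1 and 6 counts in time order, at most 1.28 CPM, and its ratio of 24 h over 12 h was 5.53 with an interval of 0.671 to 255. Of the 3 genes with the ATF4 element, Asns alone reached 20 CPM in any library.

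**Figure D1:**
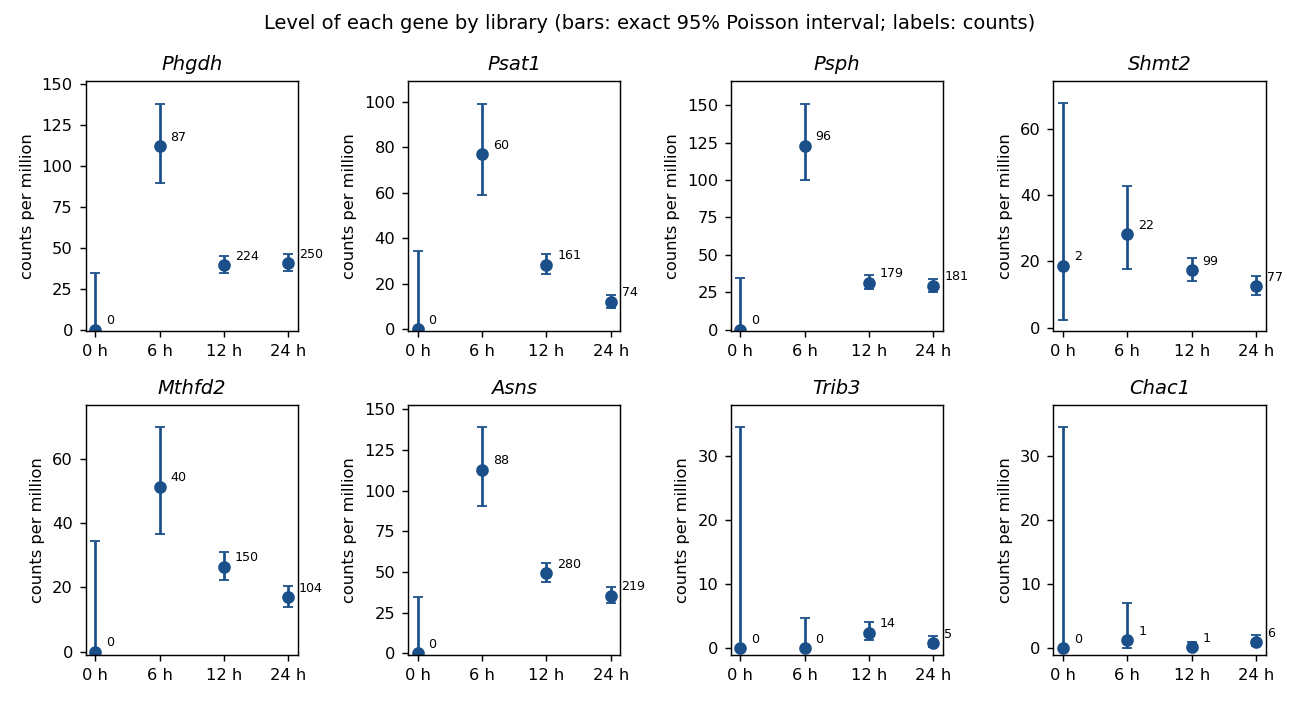
Level of each of the 8 genes (vertical axis, CPM, separate scales) in the libraries at 0, 6, 12 and 24 h (horizontal axis), with exact 95% Poisson intervals as bars and the counts printed beside each point. Phgdh, Psat1, Psph, Mthfd2 and Asns peak at 6 h with 40 to 96 counts, while Trib3 and Chac1 stay at 14 counts or fewer.

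Against the library labelled 0 h, levels could be bounded only, because 7 of the 8 genes had no count there. With 3 counts in place of 0, Phgdh at 6 h was at least 3.98-fold higher, Psph at least 4.39-fold, Asns at least 4.02-fold, Psat1 at least 2.74-fold and Mthfd2 at least 1.83-fold. These bounds leave out the counting error of the 6 h library. The exact intervals, which include it, begin at 3.17 for Phgdh, 3.5 for Psph, 3.2 for Asns, 2.16 for Psat1 and 1.42 for Mthfd2. By the same intervals Phgdh was higher at 12 h from a lower limit of 1.13 and at 24 h from 1.17, and Asns from 1.42 at 12 h and 1.02 at 24 h. For Psph the lower limits were 0.902 and 0.841, and for Psat1 0.81 and 0.339, so no difference from 0 h was detectable for them at 12 h or 24 h. Mthfd2, with lower limits of 0.754 and 0.48, was likewise not distinguishable. A gene was called when CPM plus 10 differed at least 2-fold and the gene reached 20 CPM in either library. By that rule 5 of 6 tested members were higher at 6 h than at 0 h and 0 lower, where 38.3% of all tested genes were higher and 30.6% lower. At 12 h against 0 h 5 of 5 tested were higher, where 40.1% of all genes were higher and 26.2% lower. At 24 h against 0 h it was 3 of 3 (Phgdh, Psph and Asns), where 38.1% were higher and 28.6% lower. Genes tested here passed the 20 CPM limit through the treated library, where they are high, so these counts give no direction beyond that choice. The calls of Psat1, Psph and Mthfd2 at 12 h and of Psph at 24 h carry no allowance for counting error at 0 h, and the cell type content of the library labelled 0 h differs as described.

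Between treated libraries the background was small. The 8 genes were chosen with earlier results known, so counts of calls among them describe the set and give no independent support. At 12 h against 6 h, 4 of 6 tested members (Phgdh, Psat1, Psph and Asns) were called lower and 0 higher, where 3.04% of 6917 tested genes were lower and 4.63% higher. Shmt2 and Mthfd2 were tested and not called, and Trib3 and Chac1 were below the limit. Shmt2 passed the 20 CPM limit only through the 6 h library, where it is high. The median log2 ratio of CPM plus 10 over all 8 members, tested or not, was -0.90, against 0.17 over all tested genes. At 24 h against 12 h none of 5 tested members was called, where 0.978% of genes were lower and 0.667% higher. Psat1, at 2.36-fold in CPM, missed the call because the added 10 CPM reduces its log2 difference to -0.80. At 24 h against 6 h, 5 of 6 tested members were lower, Mthfd2 joining the 4 above, where 3.49% of genes were lower and 4.02% higher. Psat1, Mthfd2 and Shmt2 were below 20 CPM at 24 h and entered only through the 6 h library, where they are high, so this count gives no support for a direction in them. Phgdh was 2.76-fold lower there (2.13 to 3.53), Psph 4.20-fold (3.24 to 5.41), Mthfd2 3.05-fold (2.06 to 4.42) and Asns 3.18-fold (2.46 to 4.09). The comparisons of 12 h and 24 h with 6 h share the 6 h library, so any error of that library enters both.

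**Figure D2:**
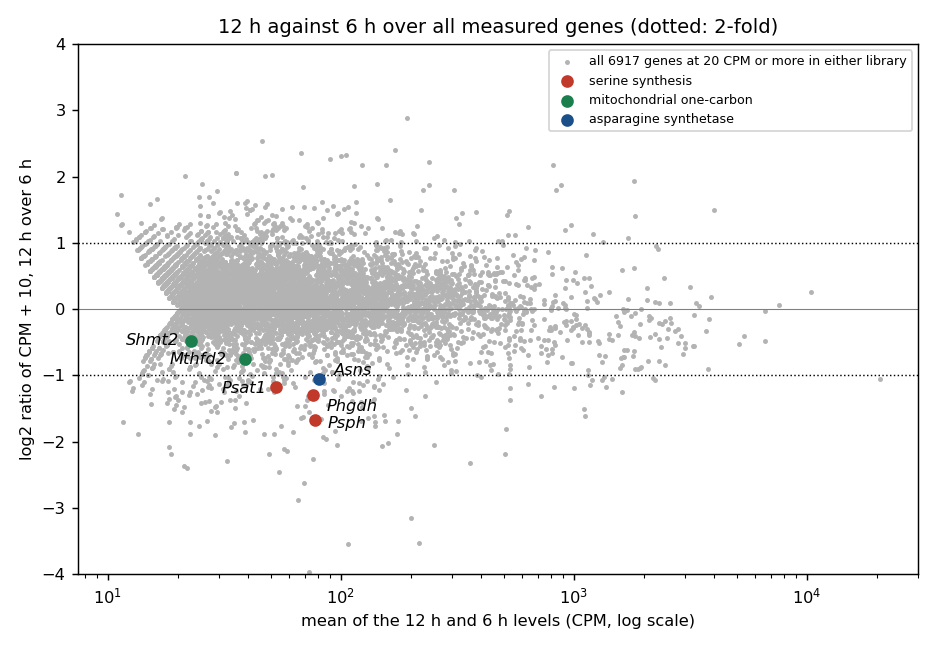
Log2 ratio of CPM plus 10 at 12 h over 6 h (vertical axis) against the mean level of the 12 h and 6 h libraries (horizontal axis, CPM, log scale) for the 6917 tested genes in grey, 5 of them beyond the axis, and the 6 tested members in colour. Phgdh, Psat1, Psph and Asns lie below the dotted 2-fold line, and Mthfd2 at -0.76 and Shmt2 at -0.48 lie between it and 0.

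Summed over the 8 genes, the level was 18.7, 506, 195 and 149 CPM at 0, 6, 12 and 24 h, from 2, 394, 1108 and 916 counts. The sum was 2.60-fold lower at 12 h than at 6 h (2.31 to 2.92) and 1.31-fold lower at 24 h than at 12 h (1.2 to 1.43). The 3 serine enzymes alone summed to 312, 99.2 and 81.9 CPM at 6, 12 and 24 h. Their sum was 3.15-fold lower at 12 h than at 6 h (2.70 to 3.66).

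Because the 6 h library is shallow, the counts behind its high level were traced to barcodes. The library has 658 barcodes with a median of 313.5 counts, and its 80 deepest barcodes, those of 1000 or more counts, held 74.1% of its counts. Counts of Asns came from 51 barcodes, of Psph from 49, of Phgdh from 44, of Psat1 from 36, of Mthfd2 from 29 and of Shmt2 from 20. The single barcode with the most counts of a gene held 6.82% of Asns (6 counts), 7.50% of Mthfd2 (3 counts), 8.05% of Phgdh (7 counts), 8.33% of Psat1 (5 counts), 9.09% of Shmt2 (2 counts) and 11.5% of Psph (11 counts). Over the 5072 genes at 20 to 200 CPM in that library the median of this share was 9.09%, with quartiles of 7.14% and 11.8%. No member stood above that upper quartile. Those genes had a median of 38 counts, against 96 of Psph, 88 of Asns and 87 of Phgdh. The share tends to fall as counts rise, so this comparison can understate how concentrated the members with more counts are. At 12 h and 24 h, where the libraries are deeper, the top barcode held 1.37% to 3.90% of the counts of these 6 genes.

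The deep barcodes held 75.9% of Phgdh, 73.3% of Psat1, 75% of Psph, 77.3% of Shmt2, 77.5% of Mthfd2 and 68.2% of Asns, close to the 74.1% of all counts except for Asns. The 10 deepest barcodes held 29.8% of all counts, 39.1% of Phgdh, 30% of Psat1, 41.7% of Psph, 27.3% of Shmt2, 25% of Mthfd2 and 35.2% of Asns. A dispersion, the mean squared deviation from a constant share of each barcode's total in units of counting error, was 1.1 for Phgdh, 1.12 for Psat1, 0.919 for Psph, 0.795 for Shmt2, 1.06 for Mthfd2 and 1.47 for Asns. The same genes at 20 to 200 CPM had a median of 0.989 with quartiles of 0.741 and 1.25. Asns alone was above that range over all barcodes, and which genes were above it changed with the barcodes used. Among the 80 deep barcodes, with quartiles of 0.798 and 1.26, Asns was at 0.959, Mthfd2 at 1.65 and Shmt2 at 1.28. Among the 33 barcodes of 5000 or more counts, Psat1 at 1.5 and Psph at 1.47 were above the upper quartile of 1.31. Without the deepest 2% of barcodes, Asns at 1.74 and Phgdh at 1.3 were above the upper quartile of 1.25.

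The barcode richest in the 8 genes was the second deepest, with 30175 counts, 3.87% of the library. It held 31 of the 394 counts (7.87%): 11 of Psph where its depth predicts 3.72, 7 of Phgdh, 6 of Asns, 5 of Psat1, and 1 each of Shmt2 and Mthfd2. Without it the same 4 genes were called lower at 12 h than at 6 h, and the log2 ratio of Psph was -1.58 in place of -1.68. Without the single top barcode of every gene, 3 were called, Asns leaving at a log2 ratio of -0.98.

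**Figure D3:**
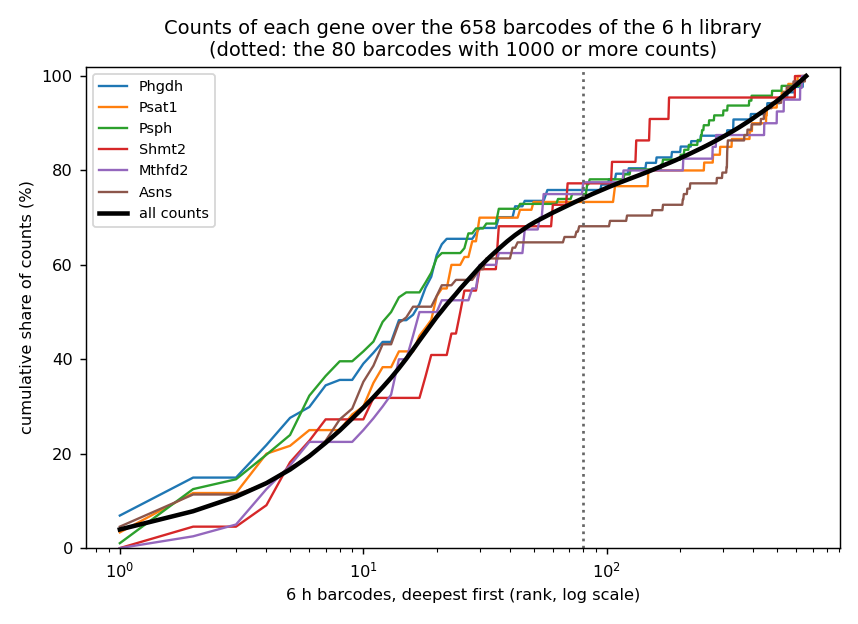
Cumulative share of each gene's counts (vertical axis, %) over the 658 barcodes of the 6 h library ordered from the deepest (horizontal axis, rank, log scale), with all counts of the library in black and the 80 barcodes of 1000 or more counts marked by the dotted line. The gene curves stand between 25% (Mthfd2) and 41.7% (Psph) at the 10 deepest barcodes, where all counts stand at 29.8%. They stand between 59.1% (Shmt2) and 70% (Psat1) at the 33 deepest, where all counts stand at 61.6%. At the dotted line they stand between 68.2% and 77.5%, where all counts stand at 74.1%.

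The sum over the 8 genes was lower at 12 h than at 6 h in barcodes of each depth, but single genes did not all follow. In barcodes under 1000 counts the 8 genes reached 195 CPM (125 to 290) in the 12 h library and 516 CPM (422 to 626) in the 6 h library, a 2.65-fold lower sum (1.69 to 4.32). In barcodes of 1000 to under 5000 counts the 12 h sum of 182 CPM was below the 6 h sum of 329 CPM, 1.81-fold lower (1.21 to 2.63). In that middle class the serine enzymes had 95.2 CPM in the 12 h library and 154 CPM in the 6 h library, and the interval of 0.877 to 2.78 around 1.62-fold lower includes no difference. Psat1 had 27 CPM (32 counts) there at 12 h and 20.6 CPM (2 counts) at 6 h. In barcodes of 5000 or more counts the sums were 198 CPM (868 counts in 450 barcodes) at 12 h and 537 CPM (258 counts in 33 barcodes) at 6 h, 2.71-fold lower (2.35 to 3.12). Among these deep barcodes the median summed level was 443 CPM for 6 h (quartiles 203 and 704), 163 CPM for 12 h (88.5 and 278) and 134 CPM for 24 h (0 and 214), at median depths of 14823, 8759 and 8596 counts. The quartile ranges of 6 h and 12 h overlap, as single barcodes carry few counts of these genes. Rank correlations between pairs of members across deep barcodes had medians of 0.23, 0.03 and 0.03 over 15 pairs at 6, 12 and 24 h, too weak in such sparse counts to be read.

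Cell cycle genes were lower together with the members at 12 h against 6 h. A list of 10 G2 and M phase genes, among them Mki67, Top2a and Cdk1, summed to 168.5, 1465, 421 and 74.0 CPM at 0, 6, 12 and 24 h. At 24 h against 12 h, 6 of 7 tested were called lower, where 0 of 5 tested members were and the sum of the 8 genes was 1.31-fold lower. At 12 h against 6 h, 10 of 10 were lower. The members were therefore also read in deep barcodes (5000 or more counts) without any G2 or M phase count, of which there were 225 at 12 h and 6 at 6 h. There the 8 genes summed to 186 CPM (168 to 205) in the 12 h library and 395 CPM (260 to 575, 27 counts) in the 6 h library, 2.13-fold lower (1.38 to 3.14). The serine enzymes had sums of 89.3 CPM in the 12 h library and 205 CPM (14 counts) in the 6 h library, 2.29-fold lower (1.23 to 3.95). By gene, Psph and Asns were called lower in these barcodes, Phgdh had a log2 ratio of -0.99 and was not, and Psat1 had a log2 ratio of -0.24 from 2 counts at 6 h, in a comparison where 8.86% of all genes were lower and 15.6% higher. Within the 6 h library the serine enzymes were at 372 CPM in the 27 deep barcodes with a G2 or M phase count and 205 CPM in the 6 without, a ratio of 1.81 (1.05 to 3.40). The same ratio was 1.22 (1.01 to 1.49) at 12 h and 0.874 (0.703 to 1.08) at 24 h. In deep barcodes with 5 or more G2 or M phase counts the serine enzymes were at 481 CPM (394 to 582) in 14 barcodes of 6 h, 164 CPM (132 to 202) in 56 of 12 h and 62.6 CPM (12.9 to 183, 3 counts) in 6 of 24 h, against 205, 89.3 and 87 CPM without any. These classes also differ in depth, with medians at 6 h of 15395 counts in the 27, 15605 in the 14 and 9563.5 in the 6 barcodes. The 14 include the barcode of 30175 counts, which held 23 of their 106 counts of the serine enzymes. At 6 h and 12 h the summed level of the serine enzymes was thus higher in barcodes rich in G2 or M phase counts, which were also deeper. Over all 8 genes the ratio with over without such counts was 1.42 (0.951 to 2.2) at 6 h and 1.13 (0.983 to 1.29) at 12 h. Both intervals include no difference. By gene at 6 h, the intervals of Phgdh, Psat1 and Psph each include it, while that of Psat1 at 12 h, 1.01 to 2.14, does not. The part of the cell cycle in the difference between times was not tested. Asns had 109 CPM with and 132 CPM without such counts at 6 h, a ratio of 0.83 (0.401 to 1.93).

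**Figure D4:**
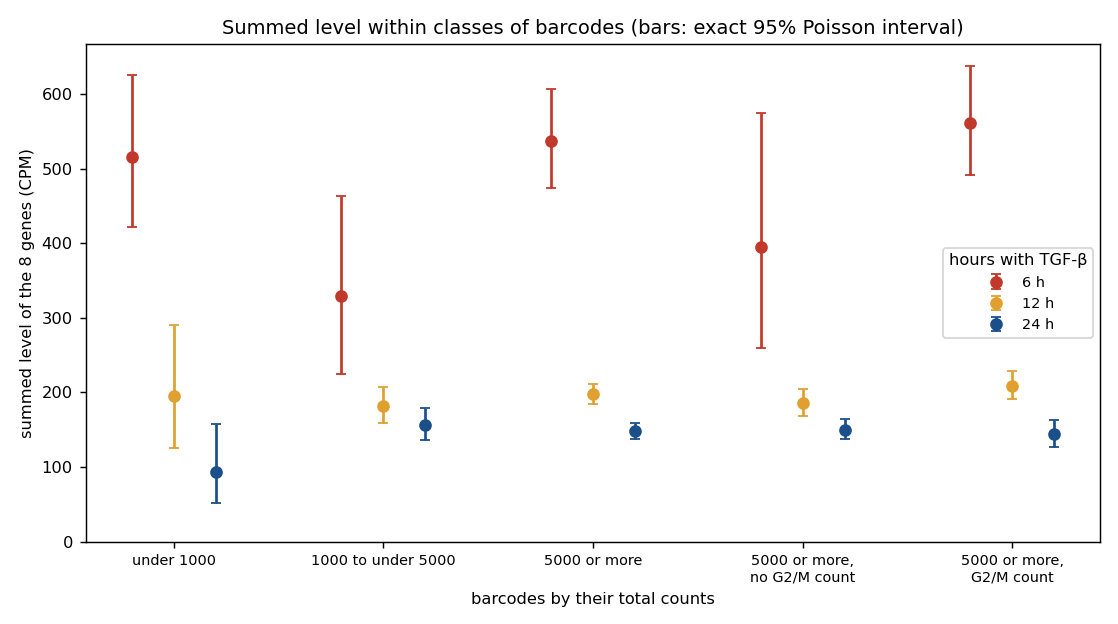
Summed level of the 8 genes (vertical axis, CPM, exact 95% Poisson intervals) at 6, 12 and 24 h in classes of barcodes by total counts and by the presence of a count of the 10 G2 and M phase genes (horizontal axis). The 6 h points lie above the 12 h points in all 5 classes, from 182 CPM at 12 h against 329 CPM in the 6 h library for barcodes of 1000 to under 5000 counts to 209 CPM against 561 CPM for deep barcodes with a G2 or M phase count.

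Other genes of the same pathways, given as counts of calls at 12 h against 6 h, mostly did not follow. Of 15 further one-carbon and glycine genes, 9 were tested and 0 called, with a median log2 ratio of -0.14. Mthfd1l, which releases formate in mitochondria, had 12.0 CPM in the 12 h library and 20.5 CPM in the 6 h library. Slc25a32, a mitochondrial folate carrier, had 22.5 CPM in the 12 h library and 10.3 CPM in the 6 h library, and Mthfd2l, the close relative of Mthfd2, had 23.6 CPM in the 12 h library and 14.1 CPM in the 6 h library.

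Atf4 itself was level, with 96 counts at 6 h (123 CPM, 99.8 to 151), 624 counts at 12 h (110 CPM, 101 to 119) and 685 counts at 24 h (111 CPM, 103 to 120), a ratio of 0.89 for 12 h over 6 h (0.717 to 1.12). ATF4 protein, which is set largely by translation, was not measured. Of 21 other ATF4 targets and stress regulators, 11 were tested, with 1 called lower, 2 higher and a median of -0.16. Nars, the asparaginyl-tRNA synthetase, was the lower one, with 1820 counts at 12 h (320 CPM, 305 to 335) and 581 counts at 6 h (746 CPM, 687 to 809), 2.33-fold lower (2.12 to 2.56). Nupr1, a stress-induced chromatin protein, was 4.63-fold higher (4.05 to 5.30), and Ddit4, an inhibitor of mTORC1, was 3.02-fold higher (2.01 to 4.76). Sesn2, a leucine sensor, was 3.15-fold higher in CPM (1.41 to 8.73) and not called. Ddit3, which encodes the stress factor CHOP, had 24.4, 22.9 and 30.2 CPM at 6, 12 and 24 h.

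Of 18 aminoacyl-tRNA synthetases, all were tested, and Nars was the 1 called lower with 0 higher and a median of -0.08. Next to Nars by size were Kars (106 CPM in the 12 h library, 55.2 CPM in the 6 h library), Rars (291 CPM in the 12 h library, 399 CPM in the 6 h library) and Gars (273 CPM in the 12 h library, 209 CPM in the 6 h library). Of 11 amino acid transporters 7 were tested and 0 called, with a median of 0.20. Slc1a4, a serine and alanine carrier, had 44.8 CPM in the 12 h library and 28.2 CPM in the 6 h library, and Slc38a2, a carrier induced by amino acid shortage, had 128 CPM in the 12 h library and 98.9 CPM in the 6 h library. Slc7a11, the cystine carrier, missed the 20 CPM limit and was picked out after its values were seen: it had 1 count at 12 h and 14 counts in 11 barcodes at 6 h. The 4 tested of 6 eIF2α kinases and related genes (median -0.03) and the 6 tested of 8 endoplasmic reticulum chaperones (median 0.19) had 0 calls. Hspa5, the main chaperone of that compartment, had 6650 counts at 12 h (1169 CPM) and 689 counts at 6 h (885 CPM). Of 7 S phase genes 4 were called lower and 0 higher, with a median of -1.06. The median over all tested genes was 0.17.

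By likeness to the summed serine enzymes, measured as the distance between log2 ratios at 12 h against 6 h and 24 h against 12 h over 3927 genes and only 3 libraries, the nearest genes were Lgals3 (distance 0.144), Lats1 (0.175), Incenp (0.199), Procr (0.251) and Cdk1 (0.262). Lgals3 had 243, 68.6 and 59.5 CPM at 6, 12 and 24 h. For Lats1 67.7% of the 6 h counts came from 1 barcode, for Incenp 25.8% and for Cdk1 18.8%, against at most 11.5% for the 6 tested members.

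The direction of the 6 tested members at 12 h against 6 h was checked under 14 other settings. Psph was below a log2 ratio of -1 in 14 of 14, Phgdh and Psat1 in 12, Asns in 9, and Mthfd2 and Shmt2 in 0. The log2 ratio ranged over these settings from -1.94 to -1.09 for Psph, -1.48 to -0.86 for Phgdh, -1.41 to -0.24 for Psat1, -1.47 to -0.72 for Asns, -0.94 to -0.41 for Mthfd2 and -0.67 to 0.18 for Shmt2. Shmt2 alone changed side, in the 6 deep barcodes of 6 h without a G2 or M phase count. TMM scaling and DESeq2 size factors move the median of all genes at 12 h against 6 h from 0.17 to 0.04 and 0.02, and the share of higher among all calls from 60.4% to 43.9% and 42.1%. With either scaling the 4 members called lower were the same.

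**Figure D5:**
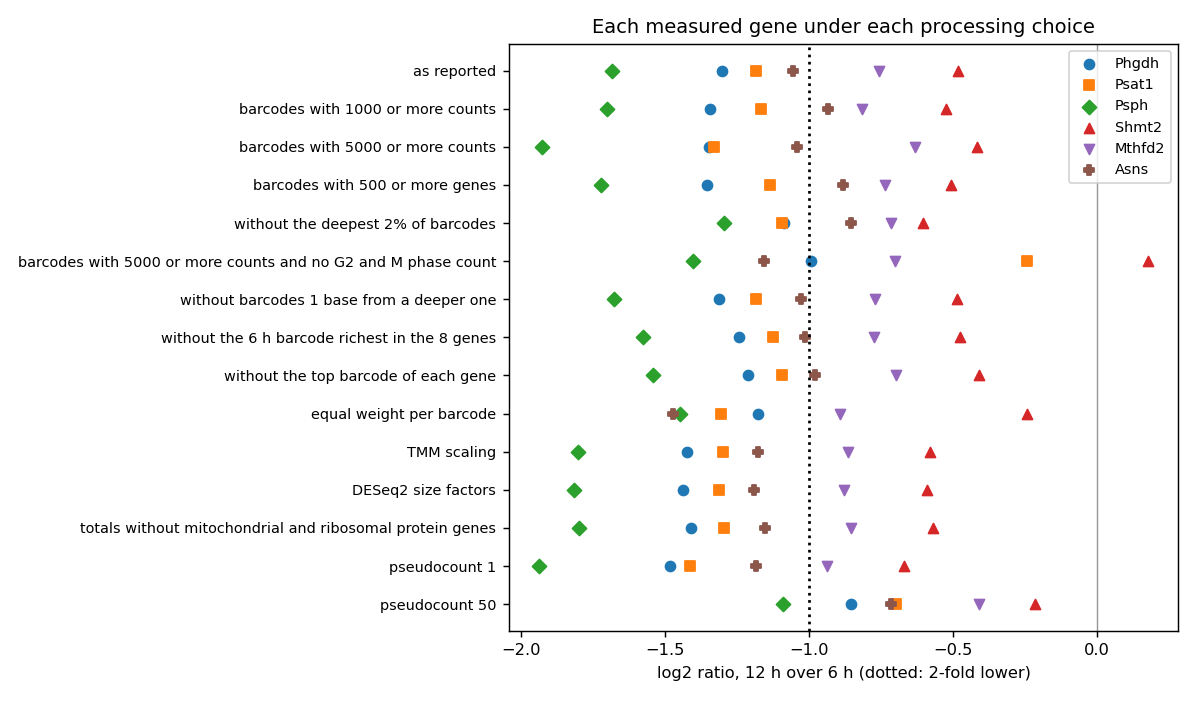
Log2 ratio at 12 h over 6 h (horizontal axis, dotted line at 2-fold lower) of the 6 tested members, each with its own marker, as reported and under 14 other settings (vertical axis). Psph stays left of the dotted line throughout, and Psat1 and Shmt2 shift most in deep barcodes without a G2 and M phase count.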

How the data were processed

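The authors deposited 1 table of raw counts (whole numbers, as seen in the values), with genes in rows and barcodes in columns named by library. Alignment used STAR 2.5.3a and the build mm10, per the submitters' processing notes. Which counter, annotation, barcode filter and strand setting were used, and whether UMIs were collapsed, was not given in the sources used here. Every one of the 3298 barcodes had at least 200 genes and no more than 4.99% mitochondrial counts, and none was removed. In time order, 0, 18, 257 and 277 barcodes lay 1 base from another in the same library; they were not merged, and no doublet caller was run. CPM came from the summed counts of each library. Log2 ratios use CPM plus 10. Ratios without it have exact conditional binomial 95% intervals. No test was made, since each time point is 1 library. The 8 genes, lists and rules were chosen with earlier results of these data known. Of each list, up to 4 genes with the largest absolute log2 ratio at 12 h against 6 h were to be named; others named, namely Atf4, Ddit3 and Slc7a11, were chosen after their values were seen, and 1 item is not reported here. Alternatives were other barcode subsets, weights, scalings (edgeR 4.0.16 TMM, DESeq2 1.42.0 size factors), pseudocounts, floors and fold limits; 3 were added after seeing the data (deep barcodes without G2 or M phase counts, without near-identical barcodes, without the richest 6 h barcode). The procedure was tested on simulated libraries with counting error only. These cannot show how it handles differences between barcodes or error between libraries. Positions are from GENCODE M21 and sequences from RefSeq, both of GRCm38, the build also called mm10. R 4.3.3 and Python 3.11.15 were used, with scipy 1.17.1, pandas 2.3.3, numpy 2.4.6 and matplotlib 3.10.9.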

Additional observations from a re-analysis of the deposited data

How the results depend on the processing

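Counts of members called at least 2-fold apart changed by over 1.5 times in these cases. At 12 h against 0 h, 0 were higher with a pseudocount of 50 and 0 with a floor of 50 CPM, against 5, and 1 (Shmt2) was lower in barcodes with 500 or more genes, against 0. At 24 h against 0 h, 0 were higher with a pseudocount of 50, 0 with a floor of 50 CPM and 5 with no floor, against 3, and 1 (Shmt2) was lower in barcodes with 500 or more genes. At 12 h against 6 h, 1 was lower with a pseudocount of 50 and 2 in deep barcodes without G2 or M phase counts, against 4. At 24 h against 12 h, 1 (Psat1) was lower with a pseudocount of 1 and 1 with a 1.5-fold limit, against 0. At 24 h against 6 h, 2 were lower with a pseudocount of 50 and 3 in deep barcodes without G2 or M phase counts, against 5. Beyond the arithmetic of the pseudocount, floor and limit, and the 6 barcodes left at 6 h in that subset, the cause was not tested. Of 699 values under alternatives, 674 were counted as moving by less than their interval, 25 moved further and no called value changed sign. These values include medians over the members and shares of the top barcode, which are not ratios of single genes. Where a gene had 0 counts in the reference library, its ratio has no finite upper limit. The count of 674 cannot test such values, which include most ratios against the library labelled 0 h. Depth limits the library labelled 0 h, which has no barcode of 5000 or more counts and gives no value there, and the 6 h library, whose member counts run from 0 to 96. No paired analysis was possible because each time point is 1 library without a replicate number. Leaving out a replicate was not possible for the same reason.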
